A study of Mus musculus with 24 samples.

Results

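The genes described here are 5 imprinted genes of the Kcnq1ot1 cluster on distal mouse chromosome 7, taken by name from each deposited expression table: the long noncoding RNA Kcnq1ot1 and the protein-coding genes Cdkn1c, Phlda2, Slc22a18 and Tssc4. They are 5 of 46078 genes in each of 2 tables and 5 of 55573 genes in the third. RNA was sequenced from pools of preimplantation embryos and from metaphase II (MII) oocytes in 24 libraries, 12 groups of 2, to ask how losing H2A ubiquitination or H3K27 trimethylation affects the transcriptome. PR-DUB, which removes ubiquitin from histone H2A, was overexpressed (OE) in B6/DBA × PWK embryos with controls (CTR) at the 2-cell and 4-cell stage, at 15 embryos per 2-cell library and 19 (CTR) or 16 (OE) per 4-cell library. KDM6B, an H3K27 demethylase, was overexpressed in embryos of the same cross at both stages, with 17 or 18 embryos per 2-cell library. Eed, which encodes a PRC2 subunit, was lost from the mother (matKO, from conditional knockout females) in 4-cell embryos of B6/129mixed females and PWK males, beside Eed CTR embryos of that cross. Untreated groups were B6/DBA MII oocytes and late 2-cell embryos of B6/DBA parents. What the control pools were given, and which Cre removed Eed, is not stated in the labels. Nor is it stated that the libraries within a group are separate collections, and p-values therefore measure only the spread between these libraries, which may be technical.

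In textbook terms, the cluster is governed by a CpG-rich control region inside an intron of Kcnq1 that carries DNA methylation on the maternal chromosome from the oocyte onwards. The unmethylated paternal copy drives Kcnq1ot1, an antisense RNA that silences neighbouring genes in cis, most widely in the placenta, where Polycomb complexes and the H3K9 methyltransferase EHMT2 take part. Cdkn1c, Phlda2, Slc22a18 and Tssc4 are accordingly expressed mainly from the maternal copy in tissues where they are imprinted. The tables hold 1 value per gene for both parental copies together, so the allele of origin was not analysed here.

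In the GENCODE annotation of mm10, the 5 genes span 434 kb of chromosome 7. Tssc4 lies at chr7:143069249-143071093 on the plus strand. Kcnq1ot1 occupies chr7:143203458-143296549 on the minus strand as a single exon of 93092 bp, wholly within Kcnq1 (chr7:143106362-143427042, plus strand). Beyond its start lie Cdkn1c (chr7:143458339-143461050, minus strand) at 164.5 kb, Slc22a18 (chr7:143473736-143499334, plus strand) at 177.2 kb and Phlda2 (chr7:143501545-143503150, minus strand) at 206.6 kb. The start of Tssc4 is 227.3 kb away on the other side. The whole of Tssc4 overlaps Trpm5 on the opposite strand, and Trpm5 was listed at 0 in 23 of 24 libraries and at 0.0756 FPKM in the remaining one. An antisense gene, Gm44732, overlaps Cdkn1c and was listed at 0 in all 4 libraries of the one table that includes it.

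The promoters of Kcnq1ot1 and Phlda2 are shown because these were the cluster genes whose RNA rose in PR-DUB OE 4-cell embryos. Each runs from 250 bases before to 50 bases after the RefSeq start (GRCm38.p6, printed 5′ to 3′ on the minus strand), Kcnq1ot1 at chr7:143296498-143296797 and Phlda2 at chr7:143502475-143502774, and RefSeq entries were used for 4 of the 5 genes. Capitals mark the 3 motifs searched for on both strands: the box CCAAT, the GC-box core GGGCGG and the TATA-type box TATAAA.
Kcnq1ot1: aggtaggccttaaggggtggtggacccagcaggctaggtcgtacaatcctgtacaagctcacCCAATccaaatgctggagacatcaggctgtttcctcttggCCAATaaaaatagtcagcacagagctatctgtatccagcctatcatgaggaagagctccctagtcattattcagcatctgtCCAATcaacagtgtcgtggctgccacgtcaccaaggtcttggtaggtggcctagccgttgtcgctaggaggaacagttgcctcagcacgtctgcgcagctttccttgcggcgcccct
Phlda2: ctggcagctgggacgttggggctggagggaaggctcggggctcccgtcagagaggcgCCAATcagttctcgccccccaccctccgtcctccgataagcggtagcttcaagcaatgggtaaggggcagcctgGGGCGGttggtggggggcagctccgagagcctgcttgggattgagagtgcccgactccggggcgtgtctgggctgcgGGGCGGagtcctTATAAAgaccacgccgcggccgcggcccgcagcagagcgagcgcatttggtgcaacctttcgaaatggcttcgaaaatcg
The Kcnq1ot1 window holds 3 copies of CCAAT and neither of the other motifs, with 9 CG dinucleotides. The Phlda2 window holds 1 CCAAT, 2 GC-box cores and 1 TATA-type box, with 26 CG dinucleotides. The Tssc4 window has 1 CCAAT, on the reverse strand, and 23 CG dinucleotides, and the Slc22a18 window has none of the 3 motifs and 2 CG dinucleotides. Of 32851 mouse promoters of this length, 37.4% hold the first of these motifs, 35.7% the second and 13.6% the third, and the median has 7 CG dinucleotides. GGGCGG itself contains a CG. These matches describe the letters of the window only.

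Levels are the deposited FPKM (fragment counts divided by gene length and by the depth of the library). The spacing of low values puts the libraries at an estimated 11500000 to 20500000 fragments, so that a 2 kb gene at 1 FPKM rests on an estimated 23.1 to 41.1 fragments. Between 10855 and 11801 genes per library reached 1 FPKM, and PR-DUB OE libraries listed more of them than their controls (for 2-cell embryos 11772 and 11553 with OE, 10966 and 11025 in CTR; for 4-cell embryos 11801 and 11594 with OE, 10855 and 11087 in CTR). The part of that shift in the results below was not tested. Oocyte markers summed to 3612 and 3650 FPKM in MII oocytes and to between 66.1 and 753 FPKM in embryo libraries. All 8 cumulus cell markers together summed to at most 1.62 FPKM in any library. Kdm6b RNA ranged from 9809 to 14735 FPKM in the 4 KDM6B 2-cell libraries and from 401 to 597 FPKM in the 4 KDM6B 4-cell libraries, controls included, and from 5.24 to 26.4 FPKM in PR-DUB libraries, so these values do not separate KDM6B OE from CTR. Bap1, the catalytic subunit gene of PR-DUB, had 22.0 and 20.3 FPKM with OE and 18.3 and 16.1 FPKM in CTR 2-cell embryos, and 10.6 and 8.81 FPKM with OE and 6.02 and 6.20 FPKM in CTR 4-cell embryos. Asxl1, a gene for its ASXL partner, had 17.6 and 16.0 FPKM with OE and 17.2 and 16.8 FPKM in CTR 2-cell embryos, and was lower with OE in 4-cell embryos, 7.596 and 10.8 FPKM, than in CTR, 12.9 and 12.2 FPKM. Bap1 was thus somewhat higher with OE at both stages, without overlap, and Asxl1 was not. These values do not by themselves show overexpression of PR-DUB, and its OE and CTR groups are named by their labels alone. The labels of the 2 KDM6B OE 2-cell libraries conflict: their titles, which were followed, name KDM6B, and their manipulation field gives PR-DUB overexpression. In the Eed experiment the titles say OE where the manipulation field says matKO, which was followed; Eed RNA stood at 22.7 and 26.9 FPKM in matKO and at 28.5 and 33.1 FPKM in CTR libraries, and the deleted exons are not given. In pooled embryos, fewer expressing cells and less RNA per cell cannot be told apart.

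Kcnq1ot1, the silencing RNA of the cluster, was the least abundant of the 4 detected genes on this per-length scale. Among the groups compared below, Kcnq1ot1 had its largest ratio, though not its largest difference in FPKM, between oocytes and late 2-cell embryos. It was listed at 0.00231 and 0.000577 FPKM in MII oocytes, an estimated 4 and 1 fragments over its whole length. Every embryo library was higher, from 0.169 FPKM in late 2-cell to 1.91 FPKM in PR-DUB OE 4-cell embryos. PR-DUB OE 4-cell embryos (1.70 ± 0.299 FPKM, SD, n = 2) stood first among the 12 groups and PR-DUB OE 2-cell embryos (0.864 ± 0.0408) second, each without overlap with the group below. KDM6B CTR and OE 4-cell, Eed matKO, Eed CTR, PR-DUB CTR 4-cell, PR-DUB CTR 2-cell and KDM6B OE 2-cell embryos followed, from 0.669 down to 0.389 FPKM, with each neighbouring pair overlapping. KDM6B CTR 2-cell (0.273 ± 0.0195) and late 2-cell embryos (0.208 ± 0.0556) came last among embryos. This order, like those that follow, crosses 3 tables that were normalised separately and is a description.

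Cdkn1c, which encodes the cyclin-dependent kinase inhibitor p57, was detected in every library, between 2.01 and 48.4 FPKM. PR-DUB CTR 4-cell (45.0 ± 4.85 FPKM, SD, n = 2) and PR-DUB OE 4-cell embryos (41.0 ± 1.49) stood highest and overlapped. PR-DUB OE 2-cell embryos (34.7 ± 7.13) came next and overlapped with neither neighbour. Eed matKO (17.3 ± 8.26), PR-DUB CTR 2-cell (14.1 ± 5.01), KDM6B CTR 2-cell (11.5 ± 1.10), Eed CTR (10.4 ± 2.68) and KDM6B OE 2-cell embryos (10.1 ± 3.10) formed a run of overlapping neighbours. Late 2-cell embryos (6.59 ± 0.239), MII oocytes (4.64 ± 0.768) and KDM6B OE (4.43 ± 1.05) and CTR 4-cell embryos (2.48 ± 0.656) stood lowest, with overlap between oocytes and KDM6B OE 4-cell embryos.

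Phlda2, a pleckstrin-homology-domain gene that limits placental growth, ranged from 0.543 to 53.9 FPKM and reached 1 FPKM in 22 of 24 libraries. Eed matKO (49.9 ± 5.71 FPKM, SD, n = 2), Eed CTR (26.7 ± 1.16) and KDM6B OE 4-cell embryos (14.7 ± 1.18) stood highest, each apart from the group below. Late 2-cell (9.72 ± 2.75), PR-DUB OE 4-cell (9.42 ± 1.98), KDM6B CTR 4-cell (7.87 ± 0.493) and PR-DUB OE 2-cell embryos (7.0 ± 3.22) overlapped in turn. KDM6B OE (3.22 ± 1.75) and CTR 2-cell (2.92 ± 0.0587), PR-DUB CTR 4-cell (2.51 ± 2.30) and MII oocytes (2.05 ± 0.450) also overlapped in turn, and PR-DUB CTR 2-cell embryos (0.870 ± 0.464) were lowest.

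Tssc4, whose human counterpart encodes a splicing-related protein, ranged from 1.39 to 17.0 FPKM. PR-DUB OE 2-cell embryos stood first (15.3 ± 2.46 FPKM, SD, n = 2), followed by PR-DUB CTR 2-cell (12.6 ± 3.73), PR-DUB CTR 4-cell (12.3 ± 1.34), KDM6B CTR 4-cell (10.8 ± 2.1), PR-DUB OE 4-cell (9.75 ± 1.09) and Eed matKO embryos (9.11 ± 1.05), each overlapping the next. Late 2-cell (6.74 ± 1.52), KDM6B OE 4-cell (6.15 ± 1.95), Eed CTR (4.6 ± 1.38), KDM6B OE 2-cell (3.13 ± 2.46) and KDM6B CTR 2-cell embryos (2.02 ± 0.415) and MII oocytes (1.79 ± 0.501) made a lower run of overlapping neighbours. Slc22a18, an organic cation transporter gene, was listed at 0 in all 24 libraries and could not be tested.

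**Figure D1:**
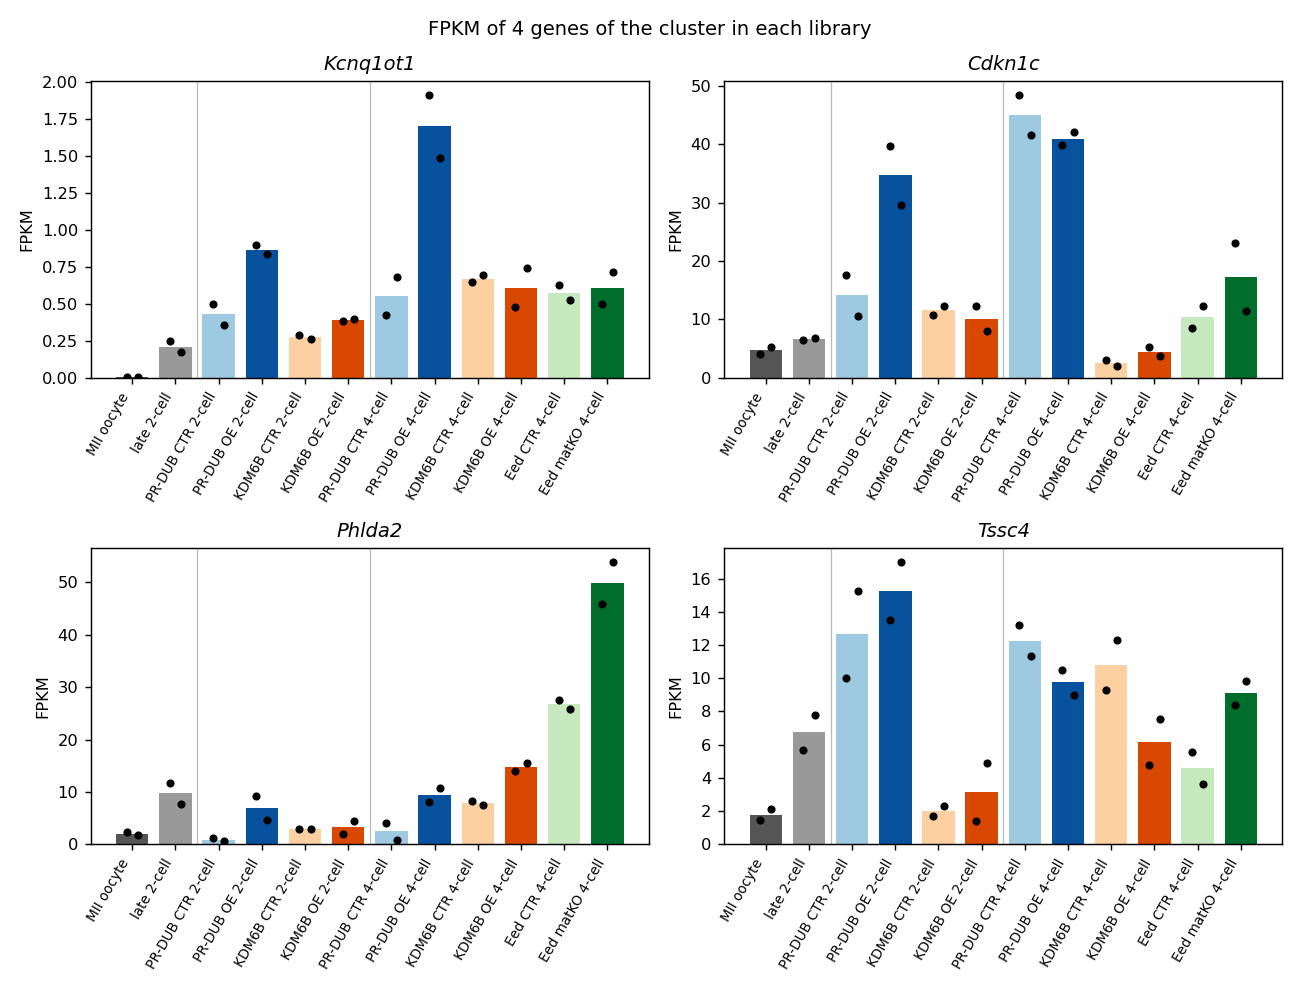
FPKM of Kcnq1ot1, Cdkn1c, Phlda2 and Tssc4 (linear axes) by group, with points for the 2 libraries and bars for their mean. Kcnq1ot1 peaks in PR-DUB OE 4-cell embryos (1.91 and 1.49 FPKM), Phlda2 in Eed matKO embryos (45.9 and 53.9 FPKM), and Cdkn1c is lowest in KDM6B CTR 4-cell embryos (2.94 and 2.01 FPKM).

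In 2-cell embryos labelled PR-DUB OE, whose Bap1 and Asxl1 values are given above, Cdkn1c and Phlda2 RNA rose over the controls, 2.46-fold and 8.04-fold. After rescaling by size factors these folds were 2.28 and 7.42. Cdkn1c stood at 39.7 and 29.6 FPKM with OE and 17.6 and 10.6 FPKM in CTR libraries, a log2 change of 1.27 (SE 0.27) on the log2(FPKM + 1) scale (limma adjusted p = 0.0477). Phlda2 stood at 9.27 and 4.72 FPKM against 1.20 and 0.543 FPKM, a log2 change of 2.06 (SE 0.44, limma adjusted p = 0.0477). Its CTR values rested on an estimated 20.0 and 8.58 fragments, so the fold value is imprecise. The lower OE library exceeded the higher CTR library for both genes. Kcnq1ot1 stood at 0.893 and 0.835 FPKM in OE and at 0.496 and 0.358 FPKM in CTR libraries; the libraries did not overlap, and the log2 change of 0.39 (SE 0.19) did not pass the test (limma adjusted p = 0.403). Tssc4 stood at 13.5 and 17.0 FPKM against 10.004 and 15.3 FPKM, with overlap.

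Both calls were of higher expression, at 2 of 4 genes tested, where 1.18% of all 15055 genes tested were called and 0.983% were called higher. Groups did not overlap for 3 of the 4 genes, against 48.5% of all genes, and the median log2 change was 0.83 over the 4 genes and 0.08 over all genes. Kcnq1ot1, 1 of the 4, was under 1 FPKM in every library compared and passed the filter only through the PR-DUB OE 4-cell libraries. All 4 were chosen with earlier results of these data known. Both calls sat close to the threshold of 0.05 and were lost when any 1 of the 4 libraries was left out (limma adjusted p = 0.0789 to 0.316 for Cdkn1c and 0.0902 to 0.332 for Phlda2). They were also lost in 5 other settings given at the end, with the direction kept.

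In 4-cell embryos labelled PR-DUB OE, in which Asxl1 was lower than in CTR, Phlda2 was again higher, 3.76-fold, and Kcnq1ot1 was 3.09-fold higher, while Cdkn1c stood at similar levels in both groups. After rescaling by size factors the folds of OE over CTR were 3.05 for Phlda2, 2.53 for Kcnq1ot1 and 0.744 for Cdkn1c. Kcnq1ot1 stood at 1.91 and 1.49 FPKM in OE and at 0.421 and 0.679 FPKM in CTR libraries, a log2 change of 0.80 (SE 0.19, limma adjusted p = 0.0170). Phlda2 stood at 8.02 and 10.8 FPKM in OE and at 4.14 and 0.878 FPKM in CTR libraries, a log2 change of 1.73 (SE 0.44, limma adjusted p = 0.0204). Neither gene overlapped between groups, and the 2 CTR libraries of Phlda2 differed from each other more than the 2 OE libraries did. Those CTR libraries held an estimated 70.8 and 11.8 Phlda2 fragments, so this fold value is imprecise too. Cdkn1c stood at 39.9 and 42.0 FPKM in OE and at 48.4 and 41.5 FPKM in CTR libraries, which overlapped (log2 change -0.13, SE 0.27, limma adjusted p = 0.825). Tssc4 stood at 10.5 and 8.98 FPKM in OE and at 13.2 and 11.3 FPKM in CTR libraries, without overlap and with a log2 change of -0.30 (SE 0.37, limma adjusted p = 0.657).

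The 2 genes called here were called higher, where 15.7% of all 15055 genes tested were called and 12.3% were called higher. Groups did not overlap for 3 of 4 genes against 57.8% of all genes, and the median log2 change was 0.34 against 0.13 over all genes. Kcnq1ot1 reached 1 FPKM only in the 2 PR-DUB OE 4-cell libraries and so entered this test through the group where it was high; with no filter its limma adjusted p was 0.0162. Its call was lost without CTR replicate 1 (limma adjusted p = 0.112) or OE replicate 1 (0.107); that of Phlda2 was lost without CTR replicate 2 (limma adjusted p = 0.170, log2 change 1.01), OE replicate 1 (0.0596) or OE replicate 2 (0.112). The 6 trophectoderm markers summed to 160 and 153 FPKM in PR-DUB OE and to 106 and 93.8 FPKM in CTR 4-cell libraries, with none of the 6 at 0 in both libraries of either group. In 2-cell embryos, where Phlda2 was 8.04-fold higher with OE, they summed to 28.1 and 31.0 FPKM with OE. The CTR sums were higher, 35.9 and 38.0 FPKM, and Hand1 was at 0 in every one of these libraries. The part of these markers in the Phlda2 values was not tested.

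The PR-DUB effect was compared between the stages directly. The Cdkn1c log2 effect was 1.39 lower at the 4-cell than at the 2-cell stage (difference -1.39, SE 0.38) and missed the threshold (limma adjusted p = 0.0862). The Phlda2 effects at the 2 stages differed by -0.32 (SE 0.62, limma adjusted p = 0.850) and those of Kcnq1ot1 by 0.41 (SE 0.27, limma adjusted p = 0.483). None of the 4 genes was called in this comparison, where 1.74% of all genes were called.

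**Figure D2:**
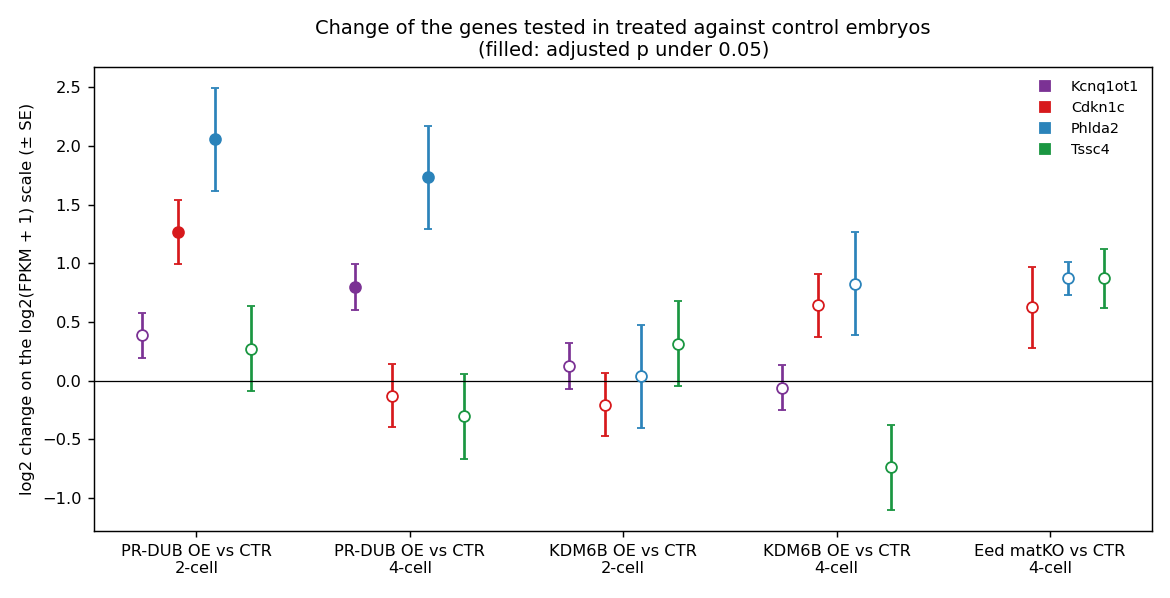
Log2 change on the log2(FPKM + 1) scale with its SE for the genes tested, in 5 comparisons of treated with control embryos (n = 2 per group); filled points passed adjusted p under 0.05. Filled points are Cdkn1c (1.27) and Phlda2 (2.06) in PR-DUB 2-cell and Kcnq1ot1 (0.80) and Phlda2 (1.73) in PR-DUB 4-cell embryos; Kcnq1ot1 was not tested in the Eed comparison.

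Embryos labelled KDM6B OE showed no called change of a cluster gene at either stage by limma. At the 2-cell stage Kcnq1ot1 stood at 0.381 and 0.398 FPKM in OE and at 0.287 and 0.259 FPKM in CTR libraries, without overlap (log2 change 0.13, SE 0.19, limma adjusted p = 0.883). Cdkn1c (12.3 and 7.90 against 10.8 and 12.3 FPKM), Phlda2 (1.98 and 4.45 against 2.88 and 2.96 FPKM) and Tssc4 (1.39 and 4.87 against 1.73 and 2.31 FPKM) overlapped. Here 0.757% of all genes were called and 44% did not overlap. None of the 4 genes had an unadjusted p under 0.05, which 2161 of all genes had.

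At the 4-cell stage, Phlda2 stood at 13.9 and 15.6 FPKM in KDM6B OE and at 8.22 and 7.52 FPKM in CTR libraries, 1.87-fold higher without overlap (log2 change 0.83, SE 0.44, limma adjusted p = 0.513). Cdkn1c stood at 5.17 and 3.68 FPKM against 2.94 and 2.01 FPKM, 1.79-fold higher without overlap (log2 change 0.64, SE 0.27, limma adjusted p = 0.387, unadjusted p = 0.0344). Tssc4 stood at 4.77 and 7.53 FPKM against 9.31 and 12.3 FPKM, lower without overlap (log2 change -0.74, SE 0.37, limma adjusted p = 0.476). Kcnq1ot1 stood at 0.475 and 0.738 FPKM against 0.649 and 0.690 FPKM, with overlap. Groups did not overlap for 3 of 4 genes against 35.1% of all genes, and 0 of 4 were called where 0.359% of all genes were. Trophectoderm markers summed to 148 and 110 FPKM with OE and 126 and 169 FPKM in CTR libraries, which overlapped. Their part in the Phlda2 values was not tested. By unadjusted p under 0.05, 1 of the 4 genes (Cdkn1c) and 1746 of all genes passed.

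The effects of the 2 enzymes were compared at each stage. At the 2-cell stage the Cdkn1c effect was 1.47 higher on the log2 scale for PR-DUB than for KDM6B (SE 0.38, limma adjusted p = 0.0721), and that of Phlda2 was 2.02 higher (SE 0.62, limma adjusted p = 0.117). At the 4-cell stage the Kcnq1ot1 effect was 0.86 higher for PR-DUB (SE 0.27, limma adjusted p = 0.0703). Kcnq1ot1 passed the expression filter only through the PR-DUB OE 4-cell libraries, and with no filter its limma adjusted p here was 0.0717. None of the 4 genes passed at either stage, where 1.72% of all genes (2-cell) and 9.27% (4-cell) did. Between stages, the KDM6B effects differed for 0.139% of all genes and for none of the 4.

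In Eed matKO 4-cell embryos, Phlda2 and Tssc4 were higher than in Eed CTR embryos in every library, but no cluster gene passed the test. Phlda2 stood at 45.9 and 53.9 FPKM in matKO and at 27.5 and 25.9 FPKM in CTR libraries, 1.87-fold higher (log2 change 0.87, SE 0.14, unadjusted p = 0.000743, limma adjusted p = 0.331). Tssc4 stood at 8.37 and 9.85 FPKM against 5.57 and 3.62 FPKM, 1.98-fold higher (log2 change 0.87, SE 0.25, limma adjusted p = 0.495). Cdkn1c stood at 23.1 and 11.4 FPKM against 8.49 and 12.3 FPKM, and the libraries overlapped. Kcnq1ot1 (0.500 and 0.712 against 0.624 and 0.522 FPKM) was under the expression filter and overlapped too.

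In this comparison 2 of 11679 genes, or 0.0171%, were called; 965 genes, and 2 of the 3 cluster genes tested, had an unadjusted p under 0.05. Groups did not overlap for 2 of 3 cluster genes against 39.4% of all genes, and the median log2 change was 0.87 against 0.01. Trophectoderm markers summed to 109 and 125 FPKM in matKO and to 89.0 and 94.7 FPKM in CTR libraries, with none of the 6 at 0 in both libraries of either group, and their part in the Phlda2 values was not tested.

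Between MII oocytes and late 2-cell embryos, RNA of all 4 detected genes was higher in the embryo in both libraries. Kcnq1ot1 stood at 0.248 and 0.169 FPKM in late 2-cell embryos, an estimated 458 fragments in all against 5 in the oocytes, a ratio of 143 (95% exact interval 60.8 to 443, counting error only). It was under the expression filter in this table; with no filter, its log2 change of 0.27 (SE 0.05) had a limma adjusted p of 0.0194. Phlda2 rose from 2.36 and 1.73 FPKM to 11.7 and 7.77 FPKM, 4.75-fold (log2 change 1.80, SE 0.24, limma adjusted p = 0.000830). Tssc4 rose from 1.43 and 2.14 FPKM to 5.67 and 7.81 FPKM, 3.77-fold (log2 change 1.47, SE 0.23, limma adjusted p = 0.00153). Cdkn1c stood at 4.10 and 5.18 FPKM and then at 6.42 and 6.76 FPKM, without overlap (log2 change 0.43, SE 0.18, limma adjusted p = 0.0617), and passed once FPKM were rescaled (0.74, limma adjusted p = 0.00645). Of all 13237 genes tested, 82.7% were called and 38% were called higher, and 2 of 3 cluster genes were called, both higher. Groups did not overlap for 3 of 3, against 91.5% of all genes. The median log2 change over all genes was -0.20 as deposited and 0.10 after rescaling.

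Kcnq1, the potassium channel gene that surrounds Kcnq1ot1 on the opposite strand, moved in its own way. It fell from 4.74 and 5.63 FPKM in MII oocytes to 1.24 and 1.57 FPKM in late 2-cell embryos (log2 change -1.36, limma adjusted p = 0.000726). From the 2-cell to the 4-cell stage it fell in PR-DUB CTR (log2 change -1.13, limma adjusted p = 0.000862) and in KDM6B CTR embryos (-1.65, limma adjusted p = 3.39e-05). In the PR-DUB comparisons, of which Kcnq1ot1 was called higher at the 4-cell stage only, Kcnq1 was at 2.63 and 2.02 with OE, 1.96 and 1.86 FPKM in CTR 2-cell embryos (limma adjusted p = 0.801). In 4-cell embryos it was at 0.202 and 0.348 FPKM with OE, 0.420 and 0.248 FPKM in CTR (limma adjusted p = 0.906). In KDM6B embryos Kcnq1 overlapped at the 2-cell stage. At the 4-cell stage it was lower with OE without overlap, 0.353 and 0.302 against 0.560 and 0.618 FPKM (limma adjusted p = 0.712), where 35.1% of all genes did not overlap. In Eed matKO embryos it was also lower without overlap, 0.475 and 0.788 against 1.38 and 0.804 FPKM in CTR, and under the expression filter. There 39.4% of all genes tested did not overlap. The libraries were made with a stranded kit, and the labels do not state whether strand was used in counting.

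**Figure D3:**
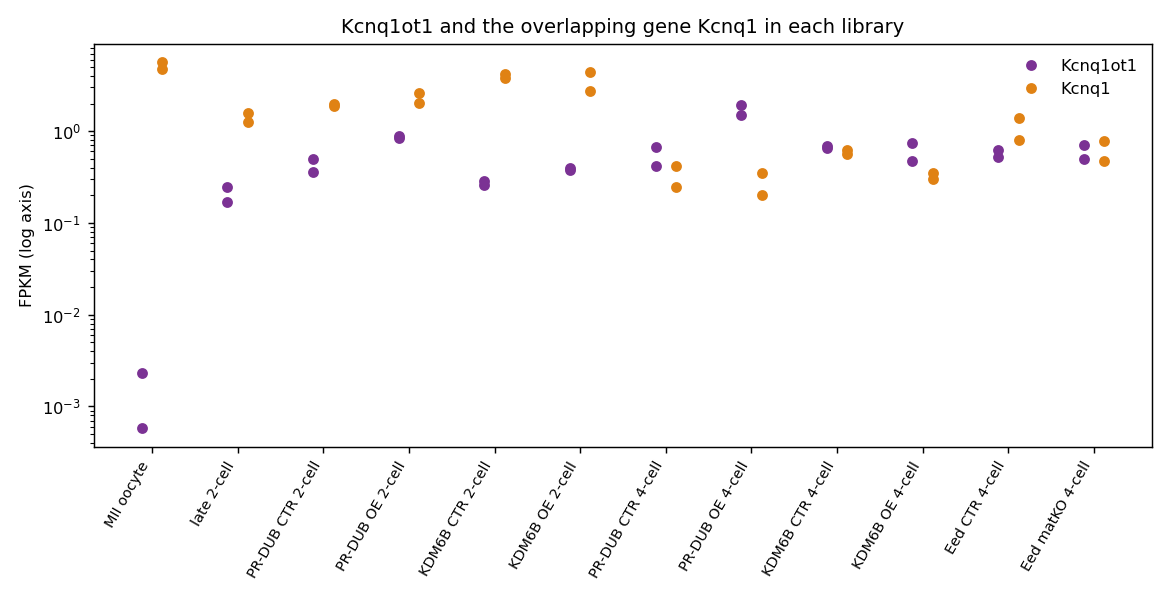
FPKM (log axis) of Kcnq1ot1 and of the overlapping gene Kcnq1 in each of the 24 libraries by group. Kcnq1 is highest in MII oocytes (4.74 and 5.63 FPKM), where Kcnq1ot1 is lowest (0.00231 and 0.000577 FPKM). In PR-DUB OE 4-cell embryos, where Kcnq1ot1 is highest (1.91 and 1.49 FPKM), Kcnq1 (0.202 and 0.348 FPKM) overlaps its CTR (0.420 and 0.248 FPKM). In KDM6B OE 4-cell embryos Kcnq1 stands at 0.353 and 0.302 FPKM and Kcnq1ot1 at 0.475 and 0.738 FPKM. In KDM6B CTR 4-cell embryos Kcnq1 stands at 0.560 and 0.618 FPKM and Kcnq1ot1 at 0.649 and 0.690 FPKM.

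From the 2-cell to the 4-cell stage, Cdkn1c changed in opposite directions in the controls of the 2 experiments, and Kcnq1ot1 was called in neither. In PR-DUB CTR embryos Cdkn1c rose 3.19-fold, from 17.6 and 10.6 to 48.4 and 41.5 FPKM (log2 change 1.64, SE 0.27, limma adjusted p = 0.000224). Phlda2 (1.20 and 0.543, then 4.14 and 0.878 FPKM), Kcnq1ot1 and Tssc4 overlapped between the stages and were not called. This was 1 of 4 genes, where 56.7% of all genes were called. Without PR-DUB CTR 4-cell replicate 2 Phlda2 passed too (log2 change 1.48, limma adjusted p = 0.0123).

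In KDM6B CTR embryos Cdkn1c fell, from 10.8 and 12.3 to 2.94 and 2.01 FPKM, to a level 4.67-fold lower (log2 change -1.86, SE 0.27, limma adjusted p = 6.24e-05). Tssc4 rose 5.35-fold, from 1.73 and 2.31 to 9.31 and 12.3 FPKM (log2 change 1.96, SE 0.37, limma adjusted p = 0.000468). Phlda2 rose 2.69-fold, from 2.88 and 2.96 to 8.22 and 7.52 FPKM (log2 change 1.18, SE 0.44, limma adjusted p = 0.0325), a call that ended without any 1 of the 4 libraries (limma adjusted p = 0.0823 to 0.108), with a pseudocount of 0.1 (0.0641), with no filter (0.0781) and after rescaling (log2 change 0.88, limma adjusted p = 0.1003). Kcnq1ot1 stood at 0.287 and 0.259 and then at 0.649 and 0.690 FPKM, without overlap (log2 change 0.39, SE 0.19, limma adjusted p = 0.0955). These were 3 of 4 genes, where 64.2% of all genes were called, and 4 of 4 did not overlap, where 79.6% of all genes did not. Kcnq1ot1 was among the 4 only through the PR-DUB OE 4-cell libraries. The KDM6B 2-cell libraries were among the first 12 samples, sequenced on a NextSeq550, and the 4-cell libraries among the other 12, sequenced on a NextSeq550 or a HiSeq2000, so stage and this split of the samples cannot be told apart here.

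Set against each other, a comparison chosen after these values were seen, the stage changes of Cdkn1c in the PR-DUB and the KDM6B controls differed by 3.51 on the log2 scale (SE 0.38, limma adjusted p = 8.68e-05). Those of Tssc4 differed by -1.98 (SE 0.52, limma adjusted p = 0.0128), and by -1.70 without PR-DUB CTR 2-cell replicate 2 (limma adjusted p = 0.0546). They were 2 of 4 genes, where 29.5% of all genes were called. At the 4-cell stage Cdkn1c was 18.2-fold lower in KDM6B CTR than in PR-DUB CTR embryos (log2 change -3.73, SE 0.27, limma adjusted p = 2.05e-06). There Phlda2 was 3.14-fold higher in KDM6B CTR (log2 change 1.51, SE 0.44, limma adjusted p = 0.0192), a call lost without either KDM6B CTR library (limma adjusted p = 0.0785 and 0.0608) or without PR-DUB CTR replicate 2, which lowered the log2 change to 0.79 (limma adjusted p = 0.200). Of all genes, 33.3% were called between the 4-cell controls. At the 2-cell stage Tssc4 was 6.26-fold lower in KDM6B CTR (log2 change -2.16, SE 0.37, limma adjusted p = 0.00116) and was the 1 of 4 genes called, where 27% of all genes were. These control pools differ by experiment and, at the 4-cell stage, by their place in that split (the instrument of each library is not given). They differ in Kdm6b RNA (401 and 571 FPKM in KDM6B CTR against 5.24 and 5.31 FPKM in PR-DUB CTR at the 4-cell stage). Oocyte markers summed to 714 and 753 FPKM in KDM6B CTR and to 307 and 320 FPKM in PR-DUB CTR at the 2-cell stage. At the 4-cell stage they summed to 116 and 128 FPKM in KDM6B CTR and to 66.1 and 74.0 FPKM in PR-DUB CTR. These differences cannot be told apart.

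**Figure D4:**
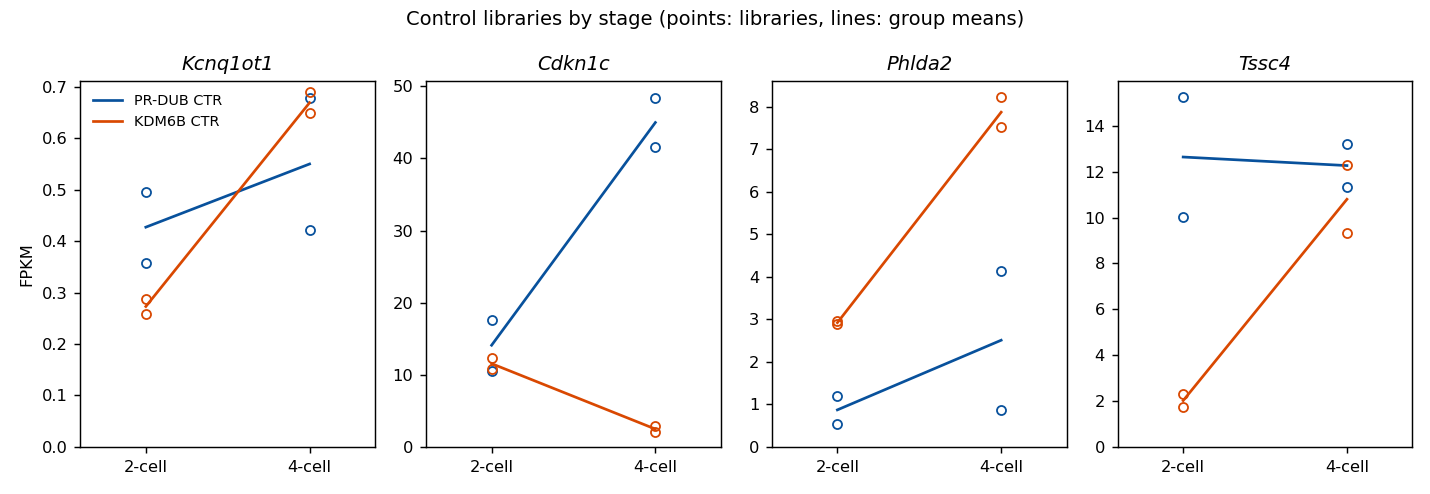
FPKM (linear axes from 0) of 4 cluster genes in control embryos at the 2-cell and 4-cell stage, with circles for libraries and lines joining group means, PR-DUB CTR in blue and KDM6B CTR in orange. Cdkn1c goes up in PR-DUB CTR (14.1 to 45.0 FPKM) and down in KDM6B CTR (11.5 to 2.48 FPKM), and Tssc4 goes up in KDM6B CTR (2.02 to 10.8 FPKM).

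Around the cluster, 22 gene names of the imprinted region and its edges were looked up; 21 were in the table of 16 libraries and 12 could be tested. None was called in PR-DUB OE 2-cell embryos, where 1.18% of all genes were (median log2 change 0.06, against 0.08 over all genes). In PR-DUB OE 4-cell embryos none of the 12 was called higher and 1 was called lower, not above the 15.7% of all genes called there. That gene was Nap1l4, a nucleosome assembly protein gene that begins 252.6 kb from the Kcnq1ot1 start. Nap1l4 fell from 46.8 and 48.9 FPKM in CTR to 31.8 and 35.2 FPKM in OE libraries (log2 change -0.50, SE 0.12, limma adjusted p = 0.0185), a call lost without CTR replicate 1 (limma adjusted p = 0.0675), CTR replicate 2 (0.0996) or OE replicate 1 (0.116). Igf2, the imprinted growth factor gene of the neighbouring domain, was listed at 2.16 and 0.830 FPKM in OE and at 0.640 and 0.370 FPKM in CTR 4-cell libraries and was not called (limma adjusted p = 0.0830); it was named after its values were seen. No gene of this list was called in the KDM6B 2-cell or 4-cell comparison, nor any of the 6 tested in the Eed comparison, where 0.757%, 0.359% and 0.0171% of all genes were.

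**Figure D5:**
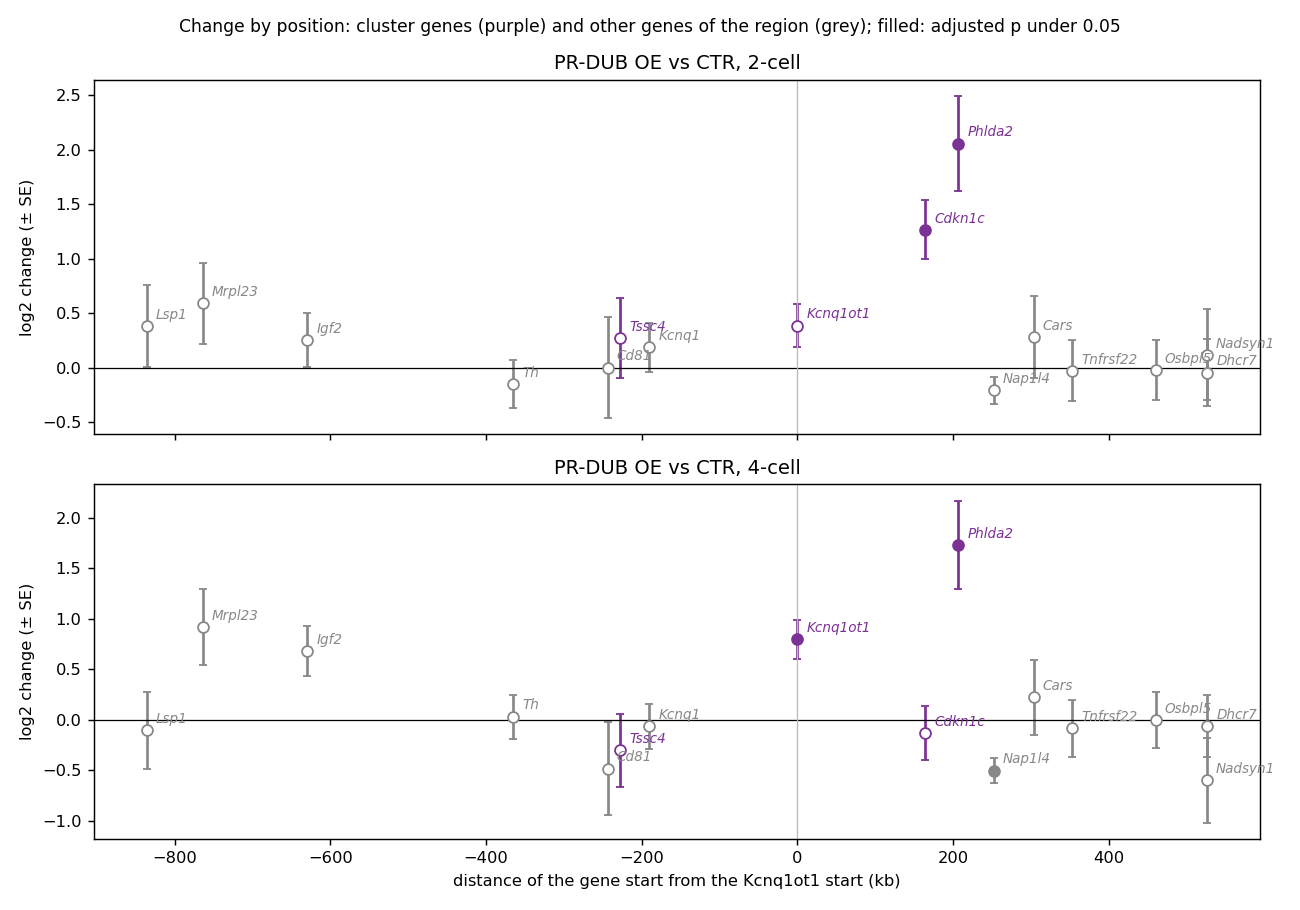
Log2 change (± SE) in PR-DUB OE against CTR embryos at the 2-cell (top) and 4-cell stage (bottom) against the distance of each gene's start from the Kcnq1ot1 start in kb, for cluster genes (purple) and other genes of the region (grey); filled points passed adjusted p under 0.05. The filled points are Cdkn1c and Phlda2 at the 2-cell stage and Kcnq1ot1, Phlda2 and, downwards, Nap1l4 (-0.50) at the 4-cell stage.

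Of 16 factors known to act on the silencing or methylation of such regions, none was called in PR-DUB OE 2-cell embryos and 3 were called at the 4-cell stage, where 15.7% of all genes were. Zfp57, which encodes a zinc finger protein that keeps methylation at imprinting control regions, fell from 28.5 and 29.4 FPKM in CTR to 6.06 and 5.52 FPKM in OE libraries, 5.0-fold lower (log2 change -2.14, SE 0.36, limma adjusted p = 0.00321). Rnf2, which encodes the E3 ligase of PRC1 that ubiquitinates histone H2A, rose from 44.8 and 47.5 to 86.3 and 72.6 FPKM (log2 change 0.77, SE 0.14, limma adjusted p = 0.00495). Bmi1, another PRC1 subunit gene, rose from 41.4 and 44.9 to 62.0 and 63.5 FPKM (log2 change 0.53, SE 0.11, limma adjusted p = 0.00760), a call lost after rescaling (0.25, limma adjusted p = 0.173) and without CTR replicate 1 (0.0608). In KDM6B OE 2-cell embryos Dppa3, whose product protects maternal methylation, rose from 477 and 406 to 584 and 728 FPKM (log2 change 0.57, SE 0.12, limma adjusted p = 0.0474) and was the only factor called, where 0.757% of all genes were; the call was lost after rescaling (limma adjusted p = 0.0696) and without KDM6B CTR replicate 1 (0.0677), CTR replicate 2 (0.298) or OE replicate 2 (0.290). No factor was called in KDM6B OE 4-cell or Eed matKO embryos, where 0.359% and 0.0171% of all genes were.

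Across the 16 PR-DUB and KDM6B libraries, which share groups and stages, the cluster genes varied largely apart from one another, with Pearson r of log2(FPKM + 1) between -0.24 (Cdkn1c with Phlda2) and 0.49 (Kcnq1ot1 with Phlda2). The 3 genes with the closest profile to Kcnq1ot1 were Prdm14 (r = 0.94), Kcnj10 (0.93) and Ddx17 (0.93). For Cdkn1c they were Pcdh8 (r = 0.94), Chml (0.92) and Atp1b1 (0.92). For Phlda2 they were Zcchc9 (r = 0.91), Zfp428 (0.89) and Syce1 (0.88), and for Tssc4 they were Mettl2 (r = 0.94), Pnisr (0.92) and Ints3 (0.90). These r values describe likeness over 16 libraries only. Kcnq1ot1 reached 1 FPKM in only 2 of them (1.91 and 1.49 FPKM), both from PR-DUB OE embryos at the later stage. Kcnj10 was also low, between 0 and 1.61 FPKM. How far those 2 libraries set the r values of Kcnq1ot1 was not tested.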

How the data were processed

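RNA was sequenced from 24 libraries with a stranded low-input SMART-Seq kit. Per the submitters' processing notes the tools include StringTie 1.3.3b, HISAT2 2.1.0 and Trim Galore 0.6.5, with build mm10; no annotation release is named there. The deposited values are FPKM, made by the authors, in 3 tables: 16 PR-DUB and KDM6B libraries, 4 Eed libraries, and 4 MII and late 2-cell libraries, the last with another annotation. Columns headed 30hpf were taken as late 2-cell.

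Genes that reached 1 FPKM in 2 or more libraries of their table were tested with limma 3.58.1 (R 4.3.3, moderated with trend) on log2(FPKM + 1), 2-sided, Benjamini-Hochberg adjusted over all genes tested (15055, 11679 and 13237), called under 0.05. The log scale understates changes of low genes such as Kcnq1ot1. Kcnq1ot1 entered the tests of the 16-library table only through the 2 PR-DUB OE 4-cell libraries. The first table was fitted as 8 groups with a shared spread. An exact permutation test of 2 against 2 libraries cannot go below p = 0.333. Fold values are ratios of mean FPKM. Fragment numbers were estimated from the smallest FPKM steps and GENCODE exon lengths. The fit was also run on simulated data, with large changes placed only in genes of higher level. That run therefore does not cover changes of genes as low as Kcnq1ot1.

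The members, the gene lists, the markers and the motifs were chosen with earlier results of these data known. Named are all 5 members, list genes called in an OE or matKO comparison, Kcnq1, and the 3 genes closest to each member. The comparisons between the control series were added after the values were seen. Alternatives were a pseudocount of 0.1, no filter, rescaling by median-of-ratios size factors, a replicate block, only the libraries compared, and each library left out.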

Additional observations from a re-analysis of the deposited data

Results flagged for a closer look

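The change of Cdkn1c from the 2-cell to the 4-cell stage differed between the 2 control series by 3.51 on the log2 scale, PR-DUB CTR minus KDM6B CTR. Both 4-cell libraries lay above both 2-cell libraries in PR-DUB CTR and below both in KDM6B CTR. The change of Tssc4 differed by -1.98, being 5.35-fold upward in KDM6B CTR (log2 1.96) and -0.02 on the log2 scale in PR-DUB CTR embryos. Both differences passed a direct test chosen after the values were seen, in which 29.5% of all 15055 genes tested were called. That of Tssc4 was -1.70 without PR-DUB CTR 2-cell replicate 2, a setting in which its call was lost. The median difference over all genes was -0.32 as deposited and 0.08 after rescaling. Experiment, place in the sequencing split, Kdm6b RNA and oocyte marker sums cannot be told apart as the source of both differences.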

How the results depend on the processing

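No called log2 change of a gene named here changed sign in any setting. With only the 4 libraries compared, Zfp57, Rnf2, Bmi1, Nap1l4 and Dppa3 lost their calls (limma adjusted p = 0.0714, 0.0759, 0.0757, 0.0806 and 0.363), and Dppa3 did so with no filter (0.0881). Of the 2 cluster genes called in PR-DUB OE 2-cell embryos, 0 remained called with a pseudocount of 0.1, with no filter, after rescaling, with a replicate block, with only the 4 libraries compared, and without any 1 library (0 to 0). Of the 2 called at the 4-cell stage, 1 was called with a pseudocount of 0.1, 1 with a replicate block, 0 with only the 4 libraries, and 0 to 1 without 1 library. Leaving out 1 library gave 1 to 2 calls for the PR-DUB CTR stage change (1 with all), 0 to 1 for the PR-DUB minus KDM6B effect at the 2-cell stage (0 with all; the 1 was Cdkn1c, without KDM6B OE replicate 1, limma adjusted p = 0.0378), 1 to 2 for the difference of control stage changes (2 with all), and 1 to 2 for KDM6B CTR against PR-DUB CTR at the 4-cell stage (2 with all). That last count was 1 with no filter and 1 with only those libraries, and at the 2-cell stage it was 2 in place of 1 after rescaling, with Phlda2 added. The causes of these lost or gained calls were not tested. A fit of only 4 libraries leaves 2 residual degrees of freedom.

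Same-numbered libraries did not vary together (correlations of -0.06 to 0.04), so the numbers are not taken to pair them; with the replicate block the limma adjusted p of Kcnq1ot1 in PR-DUB OE 4-cell embryos was 0.0586, that of Nap1l4 there 0.0648 and that of Dppa3 in KDM6B OE 2-cell embryos 0.200, so that these calls were lost, and the block called 2 genes in place of 177 at the PR-DUB 2-cell comparison, 1591 in place of 2368 at the 4-cell stage, 0 in place of 114 and 2 in place of 54 for KDM6B OE at the 2-cell and 4-cell stage, and 5, 0, 1 and 528 in place of 262, 21, 259 and 1395 for the differences of effects (PR-DUB and KDM6B by stage, then enzymes by stage). Over the other settings, genes called ranged from 0 to 212 (177), 3 to 2323 (2368), 0 to 353 (114), 1 to 106 (54) and 0 to 3 (2) for the PR-DUB 2-cell, PR-DUB 4-cell, KDM6B 2-cell, KDM6B 4-cell and Eed comparisons, the number in brackets being that of the fit reported. For the same 4 differences of effects, in the other settings that kept every library, they ranged from 139 to 391, 2 to 50, 1 to 333 and 0 to 1260. Between the controls, in those settings, they ranged from 2644 to 4399 (4060) at the 2-cell and from 2070 to 4683 (5014) at the 4-cell stage. Rescaling moved the median log2 change of all genes by -0.16 in the PR-DUB 4-cell comparison, 0.30 from MII to late 2-cell, 0.11 and -0.22 for the stage change of PR-DUB CTR and KDM6B CTR, 0.40 for their difference and -0.20 between the 4-cell controls. With 2 libraries a group, and Phlda2 on an estimated 8.58 to 20.0 fragments in PR-DUB CTR 2-cell libraries, fold values of low genes are imprecise.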
